A study of Homo sapiens with 22 samples.

Results

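The replication-dependent histone genes of human cells sit in clusters on chromosomes 6 and 1. Regions (peaks) of 8 chromatin immunoprecipitation sequencing (ChIP-seq) lists were taken where they overlapped by at least 1 bp one of 3 windows of hg19: chr6:26015000-26290000, called the long chromosome 6 cluster here, chr6:27770000-27865000, the short chromosome 6 cluster, and chr1:149754000-149860000, the chromosome 1 cluster. The windows span 275, 95 and 106 kb. They held 189 of the 291055 regions of the 8 lists. The cells were 22Rv1, a cell line from human prostate cancer. One target was H3K27me3, the trimethyl mark that Polycomb complexes set on silenced genes. Another was Pol2S5p, RNA polymerase II carrying phosphate on serine 5 of its tail, as it does when it starts on a gene. The last was E2F3, which drives genes for entry into S phase. Each was profiled in cells labelled Ctrl and in cells labelled H1-10 OE, which overexpress the linker histone variant H1-10, and Pol2S5p also after an siRNA to E2F3 (siE2F3) or its control (siCtrl). The names of the deposited siCtrl and siE2F3 lists also carry H1-10 overexpression, which the sample labels of these libraries do not give. The sources used here do not say which vector and promoter drove H1-10 or whether the cells are 1 clone. Every group is 1 library. Differences below therefore lack replicates, and p-values are not given.

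Replication-dependent histone genes supply the core histones H2A, H2B, H3 and H4, which form the nucleosome, and the linker histones H1, which bind the DNA between nucleosomes. They are switched on together as cells enter S phase, and most of their mRNAs end in a stem-loop in place of a poly(A) tail. H1-10 itself is not a gene of these clusters: it lies on chromosome 3 and belongs to the replication-independent linker histones. In the RefSeq table of GRCh38.p14, coding genes of these families fall into blocks, and the 3 largest blocks match the clusters by chromosome and order. They hold 59 genes: 6 of H1, 13 of H2A, 14 of H2B, 13 of H3 and 13 of H4. The block of the long chromosome 6 cluster runs from H1-1 to H4C8 with 32 genes, among them 5 linker histone genes in the order H1-1, H1-2, H1-6, H1-4 and H1-3. The block of the short chromosome 6 cluster runs from H2BC13 to H2BC17 with 16 genes and 1 linker histone gene, H1-5. The block of chromosome 1 runs from H2BC18 to H2AC21 with 11 genes and no linker histone gene. H1-6 is the testis form of H1. The gene table is on another genome build than the regions, so no region below is tied to a single gene, and regions are given by position.

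The promoters of the clustered linker histone genes shown here share 2 short elements, and those of most H2B genes hold another. The stretches below are shown because they carry these shared letters just upstream of linker histone genes of the clusters, with an H2B gene of the same cluster and H1-10 for contrast. They come from RefSeq on GRCh38.p14, and their positions were not converted to those of the hg19 regions: chr6:26056473-26056599 for H1-2 (minus strand), chr6:26234988-26235116 for H1-3 (minus), chr6:26156202-26156329 for H1-4 (plus), chr6:27867587-27867715 for H1-5 (minus), chr6:26108135-26108250 for H1-6 (minus), chr6:26043664-26043863 for H2BC3 (minus) and chr3:129316237-129316536 for H1-10 (minus). All are written 5′ to 3′ on the strand of the gene. Capitals mark AAACACA, known as the H1 box, the CAAT box word CCAAT, the TATA box word TATAAA and the octamer ATTTGCAT, each on either strand.
H1-2: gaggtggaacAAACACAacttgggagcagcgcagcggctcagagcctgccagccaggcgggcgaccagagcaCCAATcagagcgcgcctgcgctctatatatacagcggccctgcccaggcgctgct
H1-3: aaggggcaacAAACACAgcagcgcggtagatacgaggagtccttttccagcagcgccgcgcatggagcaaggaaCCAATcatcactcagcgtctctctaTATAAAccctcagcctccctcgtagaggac
H1-4: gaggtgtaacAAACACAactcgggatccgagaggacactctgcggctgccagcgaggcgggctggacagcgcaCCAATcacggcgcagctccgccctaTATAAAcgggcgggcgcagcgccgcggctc
H1-5: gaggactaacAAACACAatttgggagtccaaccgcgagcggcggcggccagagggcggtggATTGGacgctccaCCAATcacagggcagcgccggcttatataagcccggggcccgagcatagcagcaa
H1-6: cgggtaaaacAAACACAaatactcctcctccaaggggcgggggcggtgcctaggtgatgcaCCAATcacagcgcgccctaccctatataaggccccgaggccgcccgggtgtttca
H2BC3: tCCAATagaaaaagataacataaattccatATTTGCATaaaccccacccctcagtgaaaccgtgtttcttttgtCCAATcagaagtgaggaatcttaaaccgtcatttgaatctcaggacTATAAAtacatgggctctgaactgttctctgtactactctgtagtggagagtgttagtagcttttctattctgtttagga
H1-10: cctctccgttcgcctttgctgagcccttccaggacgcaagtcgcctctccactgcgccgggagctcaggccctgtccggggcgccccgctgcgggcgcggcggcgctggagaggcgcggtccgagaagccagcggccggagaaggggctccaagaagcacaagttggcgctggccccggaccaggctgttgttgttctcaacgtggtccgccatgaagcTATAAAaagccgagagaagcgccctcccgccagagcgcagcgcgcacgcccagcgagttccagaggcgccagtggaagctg

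In these 5 linker histone promoters the H1 box began 105 to 119 bases before the start of the gene and 44 to 57 bases lay between it and the CCAAT. RefSeq promoters, from 250 bases before to 50 bases after a start, were matched for 55 of the 59 genes. H4C1, H4C3, H3C11 and H3C12 were not matched. AAACACA on either strand was found in 6 of 6 H1 genes, against 6.94% of 27305 genes of the table. In H1-1, whose promoter is not shown, it lay only on the strand opposite to the gene. CCAAT was found in all 6 H1, all 13 H2A, all 14 H2B and all 11 H3 genes matched but in 2 of 11 H4 genes, against 39.7% of the table. The octamer, the site of the POU factor OCT1, was found in 11 of 14 H2B and 9 of 13 H2A genes, which often share 1 promoter between a divergent pair, and in 2.19% of the table. The E2F words TTTCCCGC, TTTCGCGC, TTTGCCGC and TTTGGCGC, searched on both strands, were found in 12 of the 55 genes, of which 0 were H1 genes, and in 3.99% of the table. Such matches describe the letters of these windows and no binding. The H1-10 promoter held TATAAA and none of the other words.

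Pol2S5p and E2F3 regions were found in all 3 clusters, while H3K27me3 was not called there in either condition. Pol2S5p had 29 regions in Ctrl, 34 in H1-10 OE, 35 in siCtrl and 34 in siE2F3. Of E2F3 there were 45 regions with Ctrl and 12 with H1-10 OE. The whole lists hold 35493, 40626, 83650, 83067, 22988 and 4296 regions in the same order. Read depth is unknown here, and depth and threshold can set how long a list is. Fold enrichments are the authors' values at the summit of a region and describe that region within its own list. Strength below is the rank of a region by the authors' -log10 p within its own list. Intervals are 95% Wilson intervals and cover counting error only.

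**Figure D1:**
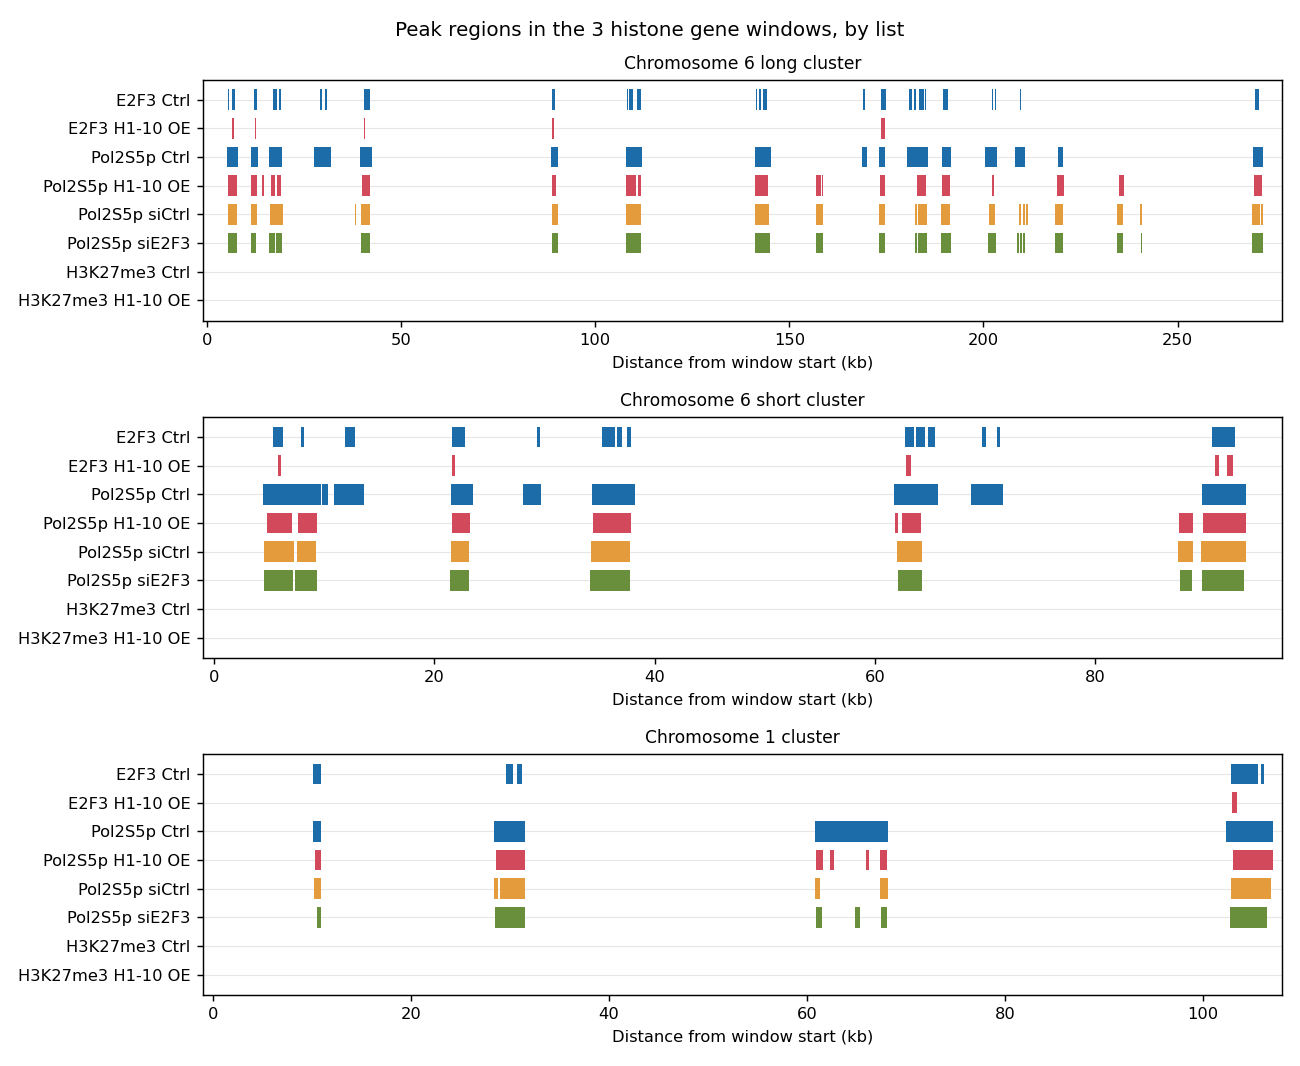
Peak regions in the 3 histone gene windows. Each row is 1 list (1 library), each bar 1 region drawn to scale, and the horizontal axis is the distance in kb from the start of the window. Pol2S5p bars of all 4 lists meet at 22 of 36 joined places, E2F3 of Ctrl (45 bars) outnumbers E2F3 of H1-10 OE (12 bars), and both H3K27me3 rows are empty.

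H3K27me3 regions were counted to see whether the silencing mark was called in the windows. Limits here are 3 counts of the total, not Wilson bounds. None of the 2540 Ctrl regions lay in the windows, which allows a share of up to 0.118%, and none of the 18395 H1-10 OE regions did, which allows up to 0.0163%. The stretch of chromosome 6 between the long and the short cluster, chr6:26290001-27769999, held 0 regions in both lists too. The share expected from the length of the windows alone was not computed, so these counts do not show that the mark was depleted there.

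Pol2S5p in Ctrl was strong and broad at the clusters. Its regions covered 45.6 kb of the long cluster (16.6% of the window), 26.8 kb of the short cluster (28.2%) and 14.9 kb of the chromosome 1 cluster (14.1%). The stretch between the chromosome 6 clusters was covered over 3.47%. Histone genes outside the blocks of the clusters were not placed, so this stretch is not known to be free of them. Of the 29 regions, 24 lay in the strongest 10% of the list and 17 among its 100 strongest regions. The median width was 2862 bp, against 765 bp over the whole list, and the median fold was 43.2, against 5.17. By -log10 p the 5 leading regions of the clusters were chr6:26188002-26189735 with a fold of 63.1, at rank 9 of 35493, chr6:26026226-26028024 with 54.4, chr6:26020130-26022912 with 64.5, chr6:26103515-26105422 with 61.1, and chr1:149856327-149861040 with 41.5. The longest region of each window was chr6:26195339-26200662 (5.32 kb), chr6:27774473-27779670 (5.20 kb) and chr1:149814762-149822124 (7.36 kb). In H1-10 OE, siCtrl and siE2F3 the longest region measured 3.30, 3.92 and 3.84 kb in the long cluster, 3.91, 4.08 and 3.80 kb in the short cluster and 3.96, 4.00 and 3.71 kb on chromosome 1.

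Pol2S5p in H1-10 OE was next set against Ctrl, to see how extra H1-10 bears on polymerase at these genes. Fewer kilobases of the clusters were covered in H1-10 OE. The clusters had 87.4 kb of Pol2S5p in Ctrl, and H1-10 OE had 53.9 kb, 0.617 times as much, while the whole lists covered 43.1 and 39.1 Mb, a ratio of 0.908. The ratio was 0.632 in the long cluster, 0.608 in the short cluster and 0.588 in the chromosome 1 cluster. The stretch between the chromosome 6 clusters, which was not checked for histone genes of its own, ran the other way. It went from 51.4 to 64.6 kb, a ratio of 1.26. The siCtrl and siE2F3 lists, which are compared here with the same Ctrl library, covered 62.8 and 62.5 kb of the clusters, although each of these whole lists covers more of the genome than the Ctrl list, 103 and 90.7 Mb. Among the 100 strongest regions of each list, which ranks regions within that list and shows no change between lists, 2 lay in the clusters in H1-10 OE, 2 in siCtrl and 5 in siE2F3.

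**Figure D2:**
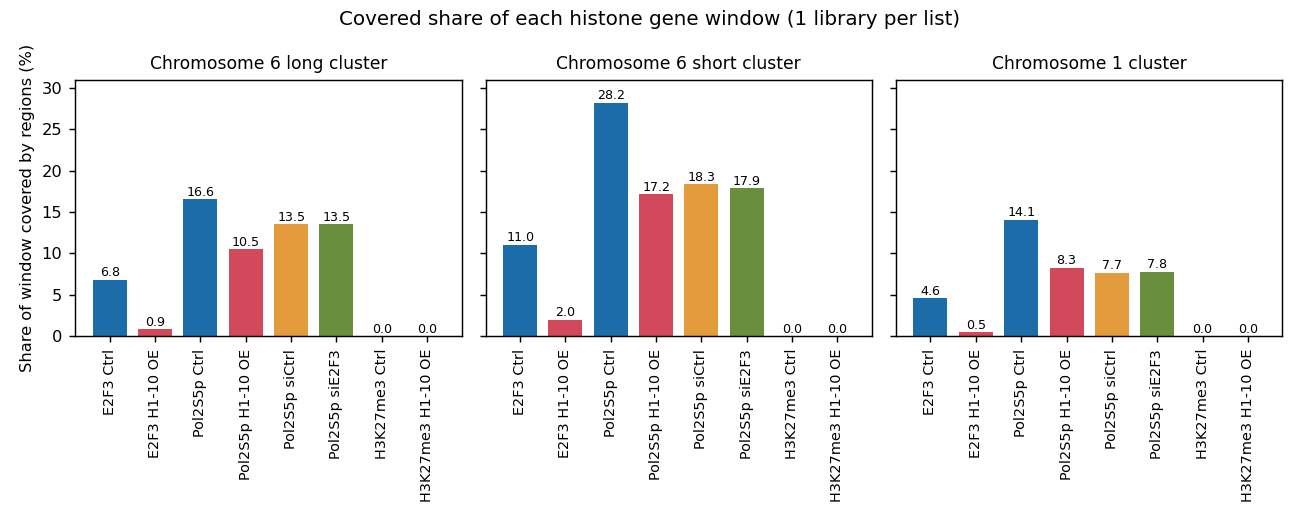
Covered share of each window in percent, 1 bar per list and 1 panel per window. The Pol2S5p bar of Ctrl is the highest in each panel (16.6, 28.2 and 14.1%), and the other 3 Pol2S5p bars lie between 7.68 and 18.3%.

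Regions of all lists that overlapped were joined into 36 places, so that the same spot could be followed across lists. Pol2S5p regions of all 4 lists met at 22 of the 36 places, against 14.4% of 111917 places over the whole genome. Those were joined in the same way from the Pol2S5p and E2F3 lists and are of any strength. In the clusters 24 of the 29 Ctrl regions lay in the strongest 10%, and 19 of these 24 met a region of H1-10 OE. Over the whole Ctrl list 98.2% of the strongest 10% did. At 6 places Pol2S5p was called in Ctrl and in none of the other 3 lists (6.16% of places genome-wide), and at 3 places in those 3 lists and not in Ctrl (5.95%). The remaining 5 places had other combinations. With -log10 q of at least 5 in every list, a setting chosen after the data were seen, the numbers were again 22, 6 and 3.

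At the 22 places with all 4 lists, Pol2S5p covered less length in H1-10 OE than in Ctrl at 21. Genome-wide this held at 44.4% of 16101 such places. In siCtrl 18 of the 22 were shorter than in Ctrl, against 15.9%, and in siE2F3 19, against 21.8%; all 3 comparisons share the Ctrl library. Of the 19 places with a Ctrl region of the strongest 10%, 19 were shorter in H1-10 OE (44.5% of 3395 such places genome-wide), 16 in siCtrl (15.8%) and 17 in siE2F3 (20.0%). Together the 22 places held 72.5 kb of Pol2S5p in Ctrl, 50.4 kb in H1-10 OE, 56.3 kb in siCtrl and, in siE2F3, 56.3 kb.

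The chromosome 1 place at chr1:149814762-149822149 had 7.36 kb of Pol2S5p in Ctrl, 2.29 kb in H1-10 OE, 1.30 kb in siCtrl and 1.58 kb in siE2F3. There 1 long Ctrl region stood against 4 separate regions in H1-10 OE, at both ends of the stretch and between them. The chromosome 1 block holds histone genes in near-identical copies, and the sources used here do not say how reads matching several copies were placed, so values of this place are uncertain. In the long chromosome 6 cluster, the place at chr6:26195339-26200662 had 5.32 kb in Ctrl, 2.19 kb in H1-10 OE, 2.87 kb in siCtrl and, in siE2F3, 2.85 kb. The place at chr6:26215342-26218420 had 3.08, 0.618, 1.41 and 1.97 kb in the same order. In the short cluster, the place at chr6:27831730-27835683 had 3.95, 2.05, 2.33 and 2.18 kb. At each of these 4 places the Ctrl library stood above the other 3. The place of the 22 that was not shorter in H1-10 OE was chr6:26233383-26235639, with 1.25 kb in Ctrl, 1.59 kb in H1-10 OE, 2.14 kb in siCtrl and 1.99 kb in siE2F3. Its Ctrl region had a fold of 5.82, the second lowest of the 29. Some other places were longer than Ctrl in an siRNA list, such as chr6:26284117-26286952 with 2.56 kb in Ctrl, 2.11 kb in H1-10 OE, 2.63 kb in siCtrl and, in siE2F3, 2.75 kb.

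**Figure D3:**
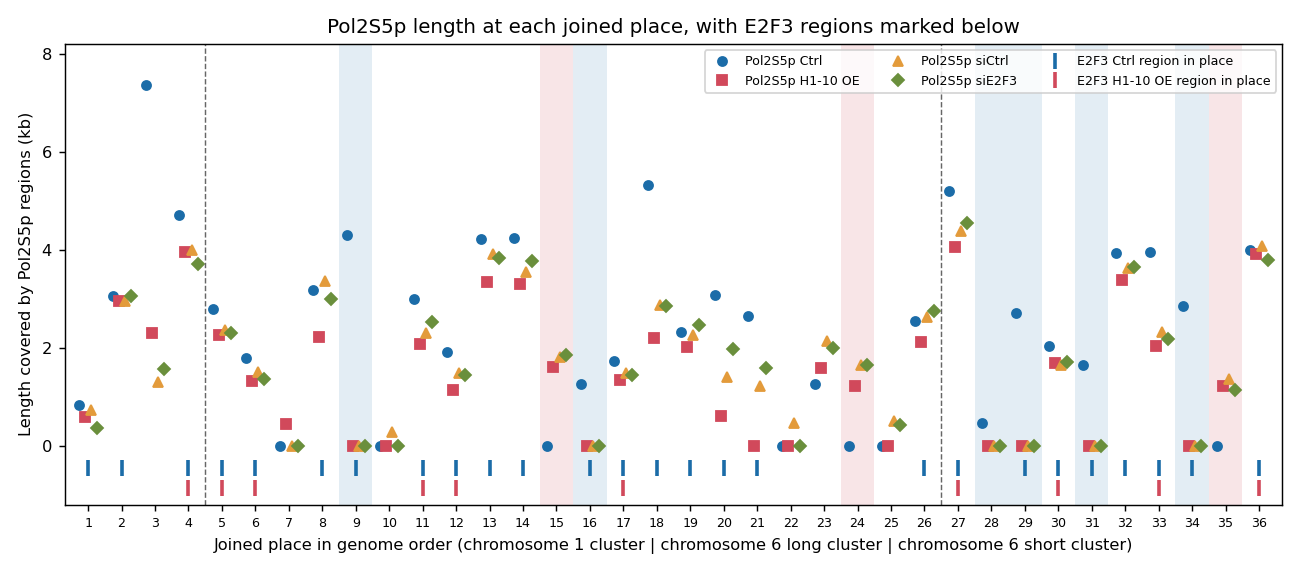
Length covered by Pol2S5p regions (kb, vertical axis) at each of the 36 joined places in genome order, 1 symbol per list, with ticks under the axis where an E2F3 region of Ctrl or H1-10 OE lies in the place. Blue bands mark the 6 places with Pol2S5p in Ctrl alone and red bands the 3 places where the other 3 Pol2S5p lists have a region and Ctrl has none.

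Of the 29 Pol2S5p regions of Ctrl, 22 (75.9%, interval 57.9 to 87.8%) met a region of H1-10 OE, and 59.0% of the whole list did. The number was 23 in siCtrl (77.5% of the whole list) and 23 in siE2F3 (74.6%). Of the 7 without overlap, 5 lay in the strongest 10% of the list. Of the 24 Ctrl regions in the strongest 10%, 5 were absent from H1-10 OE, while over the whole list 1.80% of the strongest 10% were absent, or 64 regions. All 5 were absent from siCtrl and siE2F3 as well, which held for 47 regions of the whole list (1.32%). These 5 lay 2 in the long and 3 in the short chromosome 6 cluster.

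The 5 strong regions found in Ctrl alone each spanned more than 1 kb. They were chr6:26042522-26046829 (4.31 kb, fold 39.3), chr6:26183742-26185009 (1.27 kb, 26.1), chr6:27780880-27783594 (2.72 kb, 32.4), chr6:27798031-27799675 (1.65 kb, 55.8) and chr6:27838740-27841601 (2.86 kb, 42.8). The last 2 stood at ranks 141 and 52 of the 35493 Ctrl regions. The sixth place of this kind, chr6:27779830-27780303, was weaker, with 0.474 kb and a fold of 4.95. The seventh Ctrl region without an H1-10 OE region, chr6:26223002-26225650 with a fold of 17.0, had regions in siCtrl (1.21 kb) and siE2F3 (1.60 kb). Strong neighbours of these places were kept in all 4 lists. For example, chr6:27791448-27793520 lies between chr6:27780880-27783594 and chr6:27798031-27799675. It had 2.05 kb in Ctrl, 1.69 kb in H1-10 OE, 1.64 kb in siCtrl and 1.70 kb in siE2F3. As on chromosome 1, the sources used here do not say how reads matching several histone genes were placed. Values of these places are therefore uncertain too.

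In the other direction, 29 of the 34 Pol2S5p regions of H1-10 OE (85.3%, 69.9 to 93.6%) overlapped a Ctrl region, against 57.2% of the whole list, and in the strongest 10% 18 of 18 did, against 98.4%. The 5 that did not covered 4.50 kb, against 15.9 kb for the 7 of Ctrl, and 0 of them lay in the strongest 10%. Those with -log10 q of at least 5 were chr6:26171813-26173115 (fold 12.1), chr6:26249878-26251095 (14.6) and chr6:27857631-27858847 (13.3). These 3 spots had regions in siCtrl and siE2F3 too. The first had 1.61 kb in H1-10 OE, 1.82 kb in siCtrl and, in siE2F3, 1.86 kb, the second 1.22, 1.64 and 1.64 kb, and the third 1.22, 1.36 and 1.13 kb, all with 0 in Ctrl. The 5 leading H1-10 OE regions by -log10 p were chr6:26054936-26057020 with a fold of 64.3, chr6:26031411-26032591 with 55.3, chr6:26156095-26159389 with 46.3, chr1:149857056-149861017 with 38.6 and chr6:26204384-26206408 with 45.3. All 5 overlapped a Ctrl region.

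E2F3 of Ctrl was found at most of the polymerase places of the clusters, and E2F3 of H1-10 OE at a minority of them. In Ctrl the 45 E2F3 regions numbered 26 in the long cluster, 14 in the short cluster and 5 on chromosome 1, and covered 34.1 kb. In H1-10 OE the 12 E2F3 regions numbered 6, 5 and 1 and covered 4.73 kb, 0.139 times as much, and over the whole lists the ratio was 0.125. The E2F3 regions of Ctrl were not strong within their list: 5 of 45 lay in the strongest 10%, the median region stood in the top 63.7%, the median fold was 7.44 against 8.98 over the list, and the median width 636 bp against 578 bp. The share of a list that lay in the windows was 0.196% (0.146 to 0.262%) in Ctrl and 0.279% (0.160 to 0.488%) in H1-10 OE.

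All 12 E2F3 regions of H1-10 OE (interval 75.8 to 100%) overlapped an E2F3 region of Ctrl, and 14.1% of the whole list did. Of the 45 Ctrl regions, 10 (22.2%, 12.5 to 36.3%) met a region of H1-10 OE, against 2.59% of the whole list. Of the 5 Ctrl regions in the strongest 10%, 4 were kept, against 16.9% over the whole list, and all 3 of H1-10 OE were found in Ctrl, against 29.0%. The lists differ in length, and with the 4296 strongest regions of each the clusters held 11 Ctrl and 12 H1-10 OE regions. Then 8 of the 11 and 10 of the 12 were shared, against 9.73% and 10.0% over the whole lists.

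The strongest E2F3 spot of the clusters was the same in both lists. In Ctrl it was chr6:27860589-27862727, with a fold of 115 at rank 39 of 22988. In H1-10 OE 2 regions lay inside it, chr6:27860864-27861234 with a fold of 5.97 and chr6:27861985-27862541 with 31.8, the latter at rank 3 of 4296 and with its summit 13 bp from the Ctrl summit. Next came chr6:26021320-26022258 in Ctrl, with a fold of 59.1, which held chr6:26021547-26021993 in H1-10 OE, with 12.7 and a summit 26 bp away. The Ctrl region chr6:26188541-26189765, with a fold of 40.0, also overlapped 2 H1-10 OE regions, chr6:26188507-26189001 with 3.63 and chr6:26189194-26189609 with 8.94. In both such pairs 1 of the 2 summits lay within 30 bp of the Ctrl summit.

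**Figure D4:**
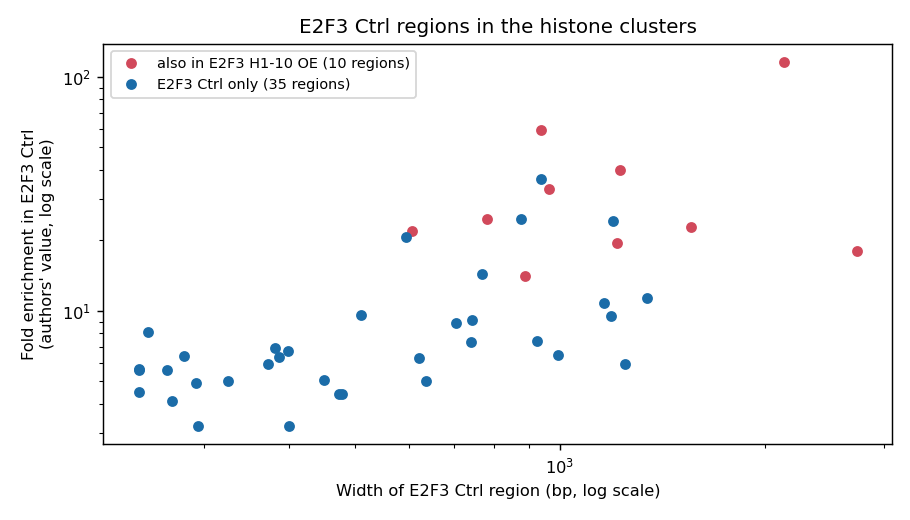
The 45 E2F3 regions of Ctrl in the clusters, by width in bp (horizontal, log scale) and by the authors' fold enrichment (vertical, log scale). The 10 regions that overlap an E2F3 region of H1-10 OE have folds of 14.03 to 115, and the 35 others have folds of 3.22 to 36.4.

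The other kept regions were spread over both chromosome 6 clusters and chromosome 1. In the long cluster they were chr6:26027012-26027899, chr6:26055395-26056951 and chr6:26103914-26104520 of Ctrl, with folds of 14.03, 22.8 and 21.9. In the short cluster they were chr6:27775319-27776282, chr6:27791577-27792789 and chr6:27832748-27833530, with folds of 33.2, 19.4 and 24.8. On chromosome 1 it was chr1:149856808-149859538, with a fold of 18.0 and a width of 2.73 kb. The H1-10 OE regions that overlapped these 7 had folds of 4.70 to 9.36. Kept Ctrl regions were wide, with a median of 1088.5 bp against 578 bp over the whole Ctrl list. The H1-10 OE regions that overlapped them had a median of 383.5 bp, close to the 381.5 bp of the whole H1-10 OE list. Over the 12 pairs the summits lay a median of 27 bp apart, from 8 bp to 1295 bp.

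The 35 Ctrl regions with no H1-10 OE region had a median fold of 6.41 and a median width of 479 bp, against a median fold of 23.8 for the 10 that were kept. The ranges overlapped. The strongest Ctrl region not found in H1-10 OE was chr6:26031974-26032911 with a fold of 36.4, at rank 1382 of 22988. Then came chr6:26045306-26045899 with a fold of 20.7 at rank 3665, chr6:27805183-27806379 with 24.3 at rank 4003 and chr6:27781929-27782806 with 24.6 at rank 4415. The second and the last of these 4 lie in Pol2S5p places that were found in Ctrl alone.

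E2F3 and Pol2S5p met throughout the clusters. All 45 E2F3 regions of Ctrl (interval 92.1 to 100%) overlapped a Pol2S5p region of Ctrl, and 68.0% of the whole E2F3 list did. All 12 E2F3 regions of H1-10 OE (75.8 to 100%) overlapped a Pol2S5p region of H1-10 OE, against 30.2% of the whole list, and all 12 also overlapped Pol2S5p of Ctrl (13.0%), siCtrl (18.2%) and siE2F3 (15.0%). Of the 45 E2F3 regions of Ctrl, 33 overlapped Pol2S5p of H1-10 OE, 36 siCtrl and 36 siE2F3. Over the whole E2F3 list of Ctrl the shares were 64.6%, 70.6% and 67.8%. The joint length was 34.2 kb in Ctrl, 99.9% of the E2F3 length and 38.7% of the Pol2S5p length of the cluster regions. In H1-10 OE it was 4.62 kb, 97.6% and 8.40%. Of the Pol2S5p regions of Ctrl, 26 of 29 (89.7%, 73.6 to 96.4%) held an E2F3 region of Ctrl, against 39.9% of the whole list. In the strongest 10% it was 24 of 24, against 97.8%. Of those of H1-10 OE, 10 of 34 (29.4%, 16.8 to 46.2%) held one of H1-10 OE, against 3.15%, and in the strongest 10% 10 of 18 did, against 6.33%. Among the strongest 10% of E2F3, 5 of 5 regions of Ctrl lay at Pol2S5p of Ctrl, against 97.1%, and 3 of 3 of H1-10 OE at Pol2S5p of H1-10 OE, against 75.5%. These overlaps join lists whose peak names carry different folder labels (1 label for Pol2S5p of Ctrl and H1-10 OE, another for E2F3), and the part of processing in them was not tested.

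A single Pol2S5p region of Ctrl often held several E2F3 regions: 13 held 1, 8 held 2, 4 held 3 and 1 held 4. The 1 with 4 was chr6:26195339-26200662, the longest of the long cluster, whose E2F3 regions had folds of 3.22 to 9.48. The 3 Pol2S5p regions of Ctrl without E2F3 were chr1:149814762-149822124, chr6:26234155-26235407 and chr6:27779830-27780303. The summit of an E2F3 region lay a median of 573 bp from the nearest Pol2S5p summit in Ctrl, against 244 bp over the whole list, and 357.5 bp in H1-10 OE, against 19996 bp over that whole list, of which 30.2% overlap Pol2S5p.

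E2F3 at the joined places was counted by which Pol2S5p lists they held. Of the 6 places with Pol2S5p in Ctrl alone, 5 held an E2F3 region of Ctrl (19.7% of such places genome-wide) and 0 held one of H1-10 OE (0.566%). Those 5 were the strong ones, and they held 7 E2F3 regions with folds of 5.06 and 20.7 at chr6:26042522-26046829, 6.75 at chr6:26183742-26185009, 24.6 at chr6:27780880-27783594, 8.08 at chr6:27798031-27799675, and 6.97 and 5.57 at chr6:27838740-27841601. Of all 47 strong Ctrl regions absent from the other 3 Pol2S5p lists, 39 held an E2F3 region of Ctrl. The 19.7% is over places of any strength, and 97.8% of all Pol2S5p regions of Ctrl in the strongest 10% held E2F3 of Ctrl. Of the 3 places with Pol2S5p in the other 3 lists and not in Ctrl, 0 held E2F3 of Ctrl (18.7% of such places genome-wide) and 0 held E2F3 of H1-10 OE (1.49%). Of the 22 places with all 4 lists, 20 held E2F3 of Ctrl (71.3%) and 10 held E2F3 of H1-10 OE (2.94%).

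Most E2F3 spots without E2F3 in H1-10 OE still had polymerase there, at about the share of the whole list. Of the 35 E2F3 regions of Ctrl absent from H1-10 OE, 23 lay at a Pol2S5p region of H1-10 OE, and 64.2% of such regions of the whole list did. The other 12 lay at none. The 2 sets had median folds of 6.41 and 6.17 in E2F3 of Ctrl. An example of the first set is chr6:26156055-26160292, with 3 E2F3 regions in Ctrl and 0 in H1-10 OE, where Pol2S5p covered 4.24 kb in Ctrl, 3.30 kb in H1-10 OE, 3.56 kb in siCtrl and, in siE2F3, 3.77 kb.

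The 2 siRNA lists were set side by side at the clusters. Whether polymerase there depends on E2F3 was not tested, as each list is 1 library. The names of both lists carry H1-10 overexpression, and E2F3 of H1-10 OE had 12 regions in the clusters. In covered length and overlap the 2 lists differed little there. Of the clusters, siCtrl covered 62.8 kb and siE2F3 62.5 kb, a ratio of 0.996, while the whole lists gave 0.885 and the stretch between the chromosome 6 clusters 0.905. By window the ratio was 1.00 in the long cluster, 0.977 in the short cluster and 1.01 on chromosome 1. Of the siCtrl regions, 33 of 35 (94.3%, 81.4 to 98.4%) overlapped an siE2F3 region, against 69.4% of the whole list. Of the siE2F3 regions, 33 of 34 (97.1%, 85.1 to 99.5%) overlapped a siCtrl region, against 77.1%. In the strongest 10%, all 23 siCtrl and all 25 siE2F3 regions of the clusters were shared, as were 100% of the whole lists in both directions.

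The regions found in 1 of the 2 siRNA lists were weak. They were chr6:26053057-26053331 (fold 3.12) and chr6:26225956-26226416 (3.91) in siCtrl and chr1:149818879-149819331 (2.67) in siE2F3, none with -log10 q of at least 5. The 10 places with E2F3 of H1-10 OE had Pol2S5p regions in both siRNA lists. The strongest region of the whole siE2F3 list by -log10 p, rank 1 of 83067, was chr6:26156177-26159946 with a fold of 66.4. In siCtrl the region at this place, chr6:26156218-26159772, had a fold of 35.3 and rank 116 of 83650. The other leading regions of siE2F3 were chr6:26020399-26022693 with 68.7, chr6:26031004-26032629 with 54.0, chr6:26054556-26057075 with 45.6 and chr6:27777367-27779318 with 64.5. Those of siCtrl were chr6:26031123-26034490 with 65.6, chr6:26020346-26022704 with 77.8, chr6:26054796-26057090 with 43.2, the region named above, and chr6:27777548-27779267 with 57.2. The same 5 places thus led both siRNA lists. How far E2F3 was reduced by the siRNA is not known from these lists.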

How the data were processed

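ChIP-seq of 22Rv1 was analysed from 8 deposited peak lists, 1 per library, of a series of 22 samples; the other 14 samples (inputs and H1-10 libraries) were not analysed here. The build is hg19 and the tools named are Bowtie, fastp and FastQC, per the submitters' processing notes. Their versions, the caller and threshold of the peaks, and the input used are not given in the sources. The authors deposited for each peak a score, which was not used, a fold (ratio) over background, a -log10 p and a -log10 q, with peaks called per library. Peak positions were made 1-based.

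Regions sharing 1 bp counted as overlapping; no list held overlapping peaks. Covered length per window was clipped to the window; lengths per place and joint lengths count whole regions. Shares carry 95% Wilson intervals, and a count of 0 the limit of 3 counts. With 1 library per group no test was made. The members, lists and tests were chosen with earlier results of these data known. Named were E2F3 regions (singly or by place), the 5 leading Pol2S5p regions of each list, the longest per window and list, those found in 1 list of a pair with -log10 q of at least 5, and H3K27me3 regions, of which there were 0. Not all E2F3 regions of Ctrl absent from H1-10 OE were named, although this was planned. The 3 weak regions of the siRNA lists, the longer and shorter places and other examples were chosen after their values were seen. The planned count of genes with a peak at their start, and lists of other genes of the pathway, were not run, because no hg19 annotation was used here; for the same reason the cell line was not checked against marker genes. Gene blocks end at a gap of 200 kb in the GRCh38.p14 table. To check the overlap code, 2000 Pol2S5p Ctrl regions (of 35493) and 2000 E2F3 Ctrl regions (of 22988) were copied and shifted by less than their width. The overlap count found every copy. The copies overlap their sources by construction, so this checks the code and bears on no result. Alternatives were only peaks with -log10 q of 5 or more, the same number of strongest peaks from each list, peaks wholly inside a window, peaks within 1 kb merged, 50% reciprocal overlap, the summit in a region of the other list, and siCtrl in place of Pol2S5p of H1-10 OE. Python 3.11.15, numpy 2.4.6, pandas 2.3.3, scipy 1.17.1, matplotlib 3.10.9 and bedtools 2.31.1 were used.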

Additional observations from a re-analysis of the deposited data

How the results depend on the processing

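Of 84 values recomputed under an alternative, 71 stayed within 1.5 times the count or within the interval of the share given above, and 13 did not. Some of the 71 could not move. These are the H3K27me3 counts of 0 and, with equal numbers of the strongest peaks, the counts of the shorter list of a pair. The number of E2F3 regions of Ctrl in the windows fell from 45 to 11 with equal numbers of the strongest peaks and to 29 with peaks within 1 kb merged, and the share of them found in H1-10 OE became 72.7% with equal numbers. A 50% reciprocal overlap lowered shares where regions of unequal width meet: Pol2S5p of Ctrl in H1-10 OE to 55.2% and the reverse to 47.1%, E2F3 of Ctrl in H1-10 OE to 4.44% and the reverse to 16.7%, siCtrl in siE2F3 to 80.0% and the reverse to 82.4%, E2F3 in Pol2S5p to 15.6% in Ctrl and 0% in H1-10 OE. With -log10 q of at least 5, siCtrl and siE2F3 regions overlapped each other over 100% of regions in both directions. No paired analysis was possible because each group is 1 library. Unknown read depth limits every comparison of counts, widths and covered lengths between lists, and a spot outside the regions of a list may still carry the factor or mark.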

Other observations

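The stretch of chromosome 6 between the long and the short cluster, 1480 kb long, had smaller shares covered by Pol2S5p and E2F3 regions than both clusters. It was not checked for histone genes of its own. Pol2S5p regions there numbered 50 in Ctrl, 79 in H1-10 OE, 92 in siCtrl and 93 in siE2F3, and covered 51.4, 64.6, 86.8 and 78.5 kb. E2F3 regions numbered 32 in Ctrl and 7 in H1-10 OE. Their covered length in H1-10 OE was 0.143 times that in Ctrl, much as in the clusters (0.139). Of those 32, 24 overlapped Pol2S5p of Ctrl and 2 overlapped E2F3 of H1-10 OE. Of the 7, 3 overlapped E2F3 of Ctrl and 6 overlapped Pol2S5p of H1-10 OE. Pol2S5p regions of Ctrl there had a median width of 882.5 bp. No hypothesis was tested.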
